A study of Rattus norvegicus with 24 samples.

Results

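The rat mitochondrial genome was represented in the count table of these urethras by 37 of 32883 genes. Of these genes, 13 have names that begin with Mt- and give the mRNAs, and 24 are named AY172581.1 to AY172581.24 and are called AY17 genes here. The members were found by these names alone. The table does not pair the AY17 names with single rRNAs or tRNAs. Their number is that of the rRNA and tRNA genes of a mammalian mitochondrial genome together, and each is described here by its table name. At 3d, the AY17 genes took 14.6 to 25.7% of all counts in urethras injected with MABs-allo, against 0.674 to 8.31% after saline, while the share of the mRNAs overlapped between all groups.

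All urethras came from female virgin Sprague-Dawley rats, 12-week-old at the time of injury, that underwent simulated vaginal delivery (SVD), a crush of the pudendal nerve together with a distension of the vagina. The rats then received an injection into the aorta of saline, MABs-allo or MABs-allo-VEGF. MABs-allo are mesoangioblasts, progenitor cells associated with vessels, grown from the hind limb muscles of other rats and marked with a lentiviral vector for eGFP and luciferase under the CMV promoter. MABs-allo-VEGF carried a lentiviral vector that expresses VEGF and a truncated CD34 from the SFFV promoter. The labels give the genotype WT for saline and MABs-allo and VEGF OE for MABs-allo-VEGF. Urethras were collected 3d or 7d after SVD, which gave 6 groups of 4 samples, and no uninjured urethra was analysed here. The labels mark replicates 6 and 7 of MABs-allo-VEGF at 7d as recovery. Nothing in the labels tells whether samples came from separate animals, so the p-values measure the spread between these samples.

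Mitochondrial DNA is copied into long RNAs from both of its strands, and most mRNAs are freed from them where tRNAs are cut out. The mRNAs encode core subunits of the respiratory chain, the rRNAs form the ribosome that translates them, and the tRNAs deliver the amino acids. Mt-nd6 is the only mRNA of the light strand. Mt-nd4l with Mt-nd4, and Mt-atp8 with Mt-atp6, overlap in sequence and are each read from a shared mRNA. The RNA is abundant in tissues with a high oxidative demand, such as muscle. The libraries were made with a 3ʹ kit that primes on poly(A), so a count stands for the RNA that this priming captured, and shares of counts were not corrected for length. In whole tissue, fewer cells of a type and less RNA per cell cannot be told apart.

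Depth ranged from 2170695 to 10166052 reads per sample. The cell-treated samples of 3d had fewer reads (2170695 to 4491900 with MABs-allo, 3042531 to 4261098 with MABs-allo-VEGF) than the saline samples of 3d (4851797 to 5249467) and than all samples of 7d (5244129 to 10166052). The 36 pairs of replicates all differed by more than counting error (chi-square divided by its degrees of freedom, 9.003 to 121). In the AY17 share, saline replicate 6 was the highest and MABs-allo-VEGF replicate 4 the lowest of their groups at 3d. Results that rest on these 2 samples are given for all 24 samples and for the other 22. As the AY17 share is one of the values in which they stood apart, the results of the 22 samples are no independent support. Leaving them out widens the difference between saline and MABs-allo-VEGF in that share. Neither was among the samples flagged as extreme in the closing section. Saline replicate 8 at 3d was low in the summed smooth muscle markers (23827 normalized counts, against 93799.5 to 176101 in the other 3) and in the summed epithelial markers (886 against 14991 to 17226). MABs-allo-VEGF replicate 2 at 3d was also low in the epithelial markers (1975 against 12200 to 33465 in the other 3). Its smooth muscle sum, 59083, was the lowest of its group and its macrophage sum, 30362, the highest.

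The share of the counts that went to the 13 mRNAs was similar across the groups. At 3d it was 11.7, 17.2, 11.1 and 11.4% in saline replicates 6, 8, 9 and 10. It was 9.72, 9.19, 8.16 and 17.6% in MABs-allo replicates 1 to 4, and 10.3, 14.6, 10.2 and 11.6% in MABs-allo-VEGF replicates 1 to 4. All 3 treatments overlapped at 3d. At 7d the share was 12.3 to 15.8% after saline, 10.99 to 13.3% after MABs-allo and 11.5 to 15.4% after MABs-allo-VEGF, which also overlapped. Group means lay between 11.2% ± 4.32 (SD, n = 4, MABs-allo 3d) and 14.4% ± 1.51 (SD, n = 4, saline 7d). The lowest and the highest of the 24 samples, 8.16% and 17.6%, were both MABs-allo samples of 3d.

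The share of the 24 AY17 genes did not follow that of the mRNAs. At 3d it was 8.31, 0.674, 1.65 and 2.61% in saline replicates 6, 8, 9 and 10. In MABs-allo replicates 1 to 4 it was 25.7, 14.6, 18.9 and 17.2%, every value above those of saline. In MABs-allo-VEGF replicates 1 to 4 it was 18.1, 24.5, 20.5 and 4.08%, of which replicate 4 lay within the saline range. The group means were 3.31% ± 3.42, 19.1% ± 4.70 and 16.8% ± 8.88 (SD, n = 4 each). Without saline replicate 6 the saline mean was 1.65%, and without MABs-allo-VEGF replicate 4 the mean of that group was 21.0%. At 7d the share was 0.455 to 0.586% after saline, 0.445 to 1.45% after MABs-allo and 0.499 to 0.920% after MABs-allo-VEGF. The lowest cell-treated sample of 3d, at 4.08%, thus lay above all 12 samples of 7d. Exact 95% binomial intervals of these shares were narrow, 18.8 to 18.9% in the sample with the fewest reads, and they cover counting error only.

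Both classes together took 23.8 to 35.4% of the counts in the MABs-allo samples of 3d and 15.7 to 39.1% in the MABs-allo-VEGF samples of 3d. They took 12.7 to 20.0% in the saline samples of 3d and 11.8 to 16.2% in the samples of 7d. The share left for all other genes was lower accordingly, but their summed normalized counts were not. At 3d these sums were 1.45e+07 to 1.57e+07 with saline, 1.46e+07 to 1.59e+07 with MABs-allo and 1.48e+07 to 1.55e+07 with MABs-allo-VEGF. As the counts were divided by DESeq2 size factors, near-equal sums do not tell whether the amount of RNA of these genes changed. Set against the total of the genes outside the mitochondrial genome, the mRNAs stood at a mean of 15.4% ± 3.79 with saline, 16.3% ± 7.27 with MABs-allo and 16.7% ± 4.84 with MABs-allo-VEGF at 3d (SD, n = 4 each), and at 17.0% ± 2.05 with saline at 7d. The order of the 3 means at 3d was thus not that of the shares of all counts, and on both scales the groups overlapped.

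**Figure D1:**
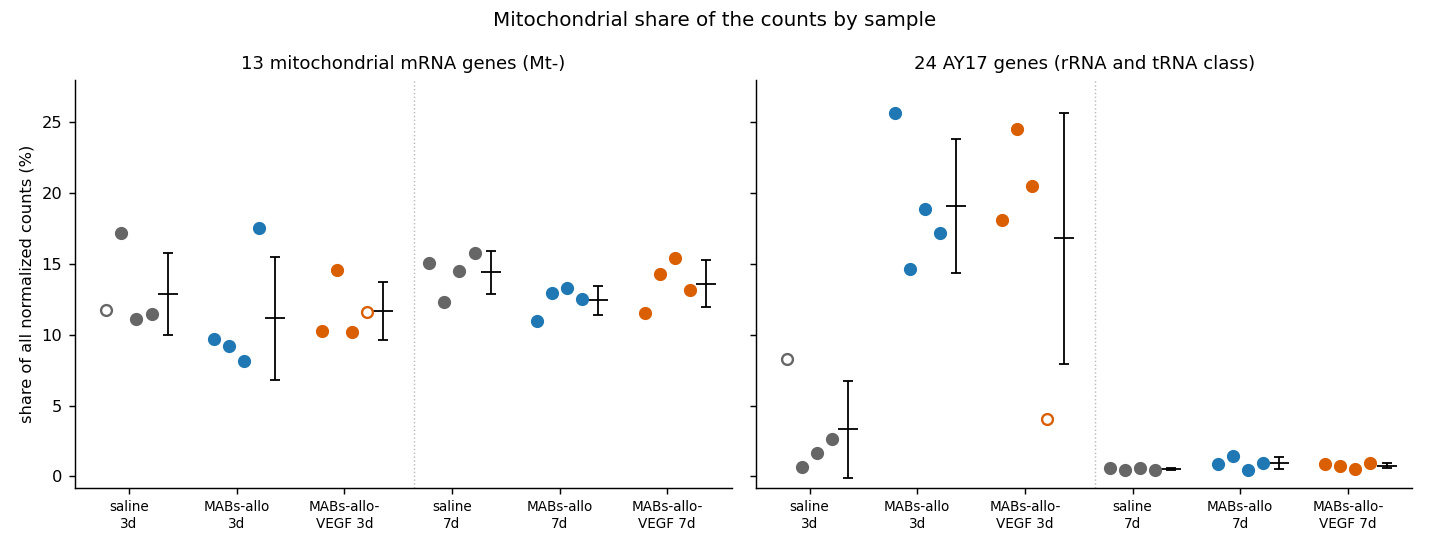
Share of all normalized counts (%) taken by the 13 Mt- genes (left) and by the 24 AY17 genes (right), 1 point per sample. Bars give the mean and SD of 4 samples, and open points mark saline replicate 6 and MABs-allo-VEGF replicate 4 at 3d. The 4 MABs-allo samples of 3d lay between 14.6 and 25.7% in the right panel, above every saline sample, while the groups overlapped in the left panel.

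Within the AY17 class, nearly all counts fell on AY172581.24 (ENSRNOG00000043866) and AY172581.9. These 2 genes held 95.6 to 99.98% of the AY17 counts in every sample. The other 22 genes together took 0.00469 to 0.0458% of all counts, with means between 0.0165% (saline 7d) and 0.0251% (MABs-allo 3d), and their groups overlapped. The rise of the class at 3d was thus carried by 2 of its 24 members. Of the 24 genes, 14 had reads in every sample, 6 in some samples and 4 in none (AY172581.5, AY172581.7, AY172581.10 and AY172581.16). A count of 0 allows a share of up to 2.95e-05 to 0.000138% of the reads, depending on the sample.

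High counts are given in units of 1000 normalized counts. AY172581.24 had 1321, 77.9, 233 and 370.4 (× 1000) in saline replicates 6, 8, 9 and 10 at 3d. With MABs-allo at 3d it had 4767, 2429.9, 3119.5 and 3612 (× 1000), all above saline. With MABs-allo-VEGF at 3d it had 3224, 5217, 3725 and 622 (× 1000), with only replicate 4 inside the saline range. At 7d it had 62.6, 54.0, 69.7 and 49.3 (× 1000) after saline, all below the saline samples of 3d. It had 115, 207, 53.0 and 165 (× 1000) after MABs-allo at 7d, and 134, 93.5, 55.7 and 119.7 after MABs-allo-VEGF at 7d. The 3 groups of 7d overlapped.

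AY172581.9 likewise separated MABs-allo from saline at 3d. It had 177, 47.2, 51.0 and 84.2 (× 1000) in the saline samples of 3d. It had 1139, 501, 651 and 575 (× 1000) with MABs-allo, and 509, 986, 684 and 108 with MABs-allo-VEGF. At 7d all 12 samples had 19.7 to 52.4 (× 1000), which was below every cell-treated sample of 3d. At 7d, the count of AY172581.24 was 1.62 to 2.33 times that of AY172581.9 after saline, 2.68 to 4.12 times after MABs-allo and 1.48 to 4.08 times after MABs-allo-VEGF. In the cell-treated samples of 3d it was 4.18 to 6.34 times, so the highest sample of 7d came close to the lowest of these. Saline samples of 3d spread from 1.65 times (replicate 8) to 7.45 times (replicate 6).

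The next AY17 genes by mean did not separate the groups. AY172581.18 had 981, 1274, 1683 and 1918 normalized counts with saline, 227, 1335, 3813 and 3108 with MABs-allo, and 1719.5, 3017, 1473 and 1296 with MABs-allo-VEGF at 3d. At 7d it had 1431, 1730.0, 1142 and 1827 with saline, 1096 to 3354 with MABs-allo, and 1237 to 2635 with MABs-allo-VEGF. AY172581.1 had 425 to 875 normalized counts with saline, 78.1 to 1283 with MABs-allo and 449 to 1084 with MABs-allo-VEGF at 3d, and 211 to 902 in the samples of 7d. In both genes MABs-allo replicate 1 of 3d was the lowest of the 24 samples, although it had the highest AY17 share. The other 20 genes of the class each had a mean of at most 506 normalized counts.

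By the calls between MABs-allo and saline at 3d given below, the 13 mRNAs fell into 3 that rose with AY172581.24 and AY172581.9 and 10 that did not. Mt-nd6 encodes a subunit of complex I, which takes electrons from NADH. It had 658, 43.1, 179 and 296 normalized counts in the saline samples of 3d. With MABs-allo it had 5432, 3277, 3822 and 3526, and with MABs-allo-VEGF 2768, 5234, 3754 and 356. Every MABs-allo sample was above every saline sample, and of the MABs-allo-VEGF samples only replicate 4 was not. At 7d Mt-nd6 had 25.2 to 80.4 after saline, 73.4 to 191 after MABs-allo and 34.1 to 163 after MABs-allo-VEGF.

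Mt-nd4l, also a subunit of complex I, was the mRNA with the lowest mean. It had 1164, 188, 332 and 433 normalized counts with saline at 3d, 1661, 941, 932 and 1367 with MABs-allo, and 925, 2367, 1049 and 561 with MABs-allo-VEGF. Saline replicate 6 lay among the cell-treated samples, and the other saline samples lay below all of them. At 7d the 12 samples had 158 to 416. Mt-atp8, a small subunit of the ATP synthase, had 22.3, 14.0, 10.7 and 13.5 (× 1000) with saline at 3d. It had 144, 30.1, 20.4 and 115 (× 1000) with MABs-allo and 73.8, 166, 96.5 and 17.6 with MABs-allo-VEGF, against 5.64 to 14.6 in the samples of 7d. The Mt-atp8 counts of MABs-allo replicates 1 and 4 were several times those of replicates 2 and 3.

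**Figure D2:**
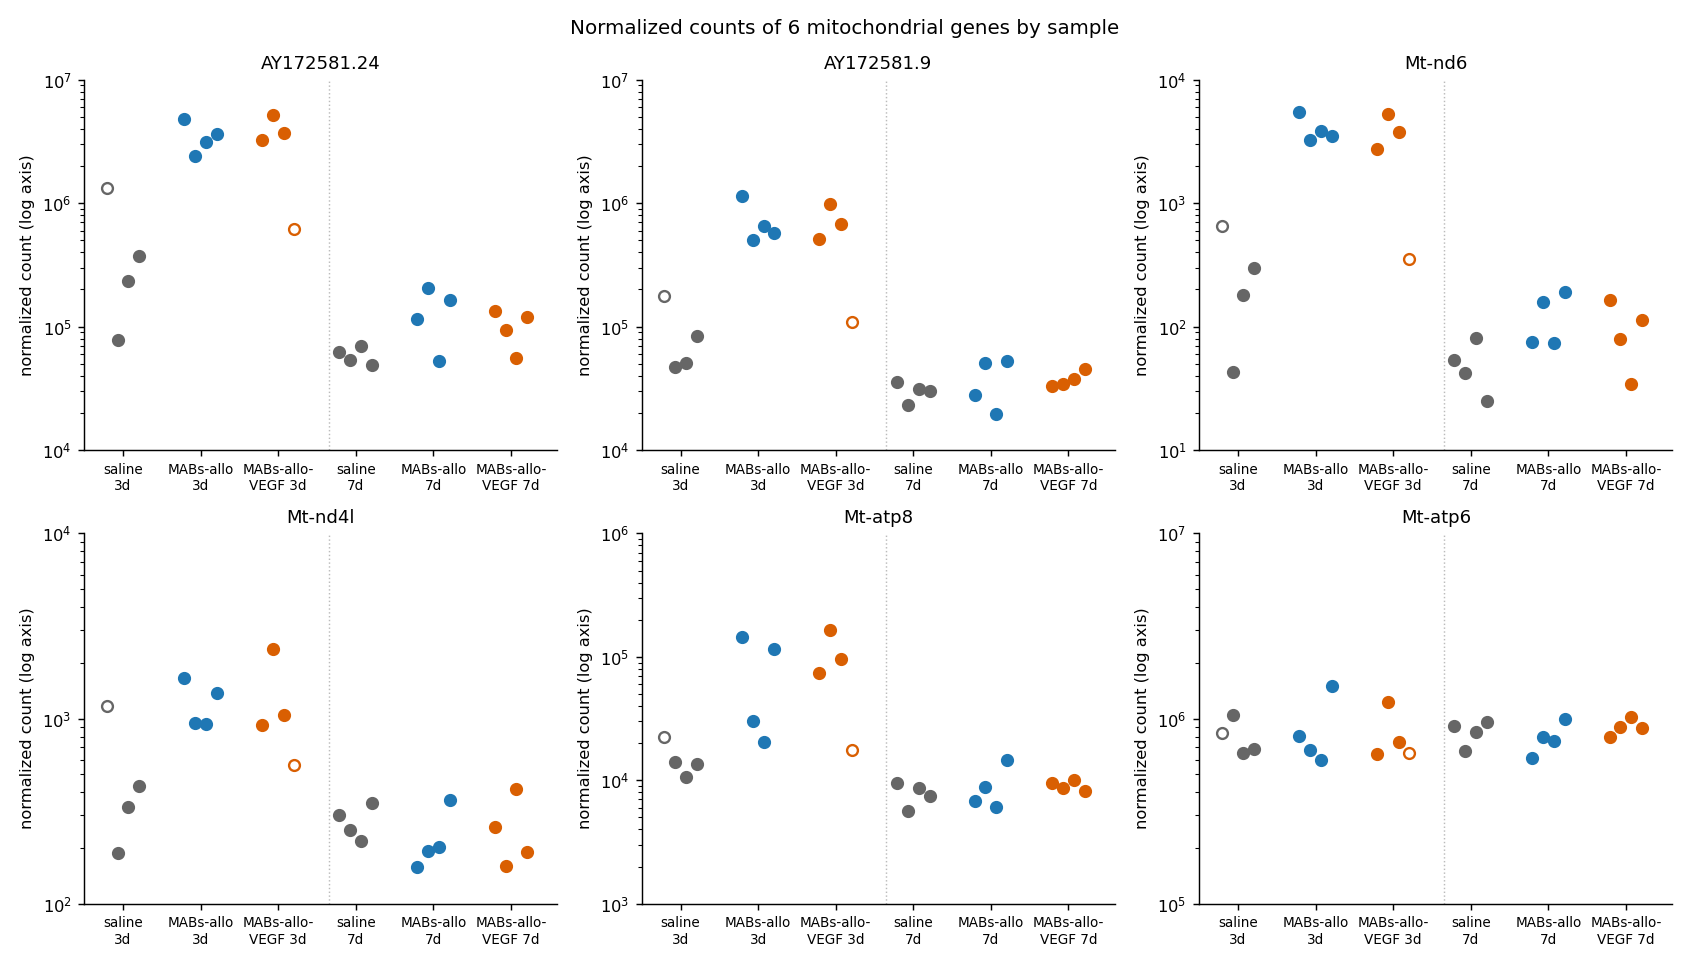
Normalized counts (log axes) of AY172581.24, AY172581.9, Mt-nd6, Mt-nd4l, Mt-atp8 and Mt-atp6, 1 point per sample, with saline replicate 6 and MABs-allo-VEGF replicate 4 of 3d as open points. In the first 5 genes the filled cell-treated points of 3d stood above all points of 7d, whereas the groups of Mt-atp6 overlapped.

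The mRNAs with the highest means did not separate the groups at 3d. Mt-atp6, a subunit of the ATP synthase, had 835, 1039.9, 648 and 682 (× 1000) with saline, 802, 675, 597 and 1498 with MABs-allo, and 642, 1227, 747 and 656 with MABs-allo-VEGF. At 7d it had 616 to 1021 (× 1000) in the 12 samples. Mt-co2, a subunit of complex IV, had 284, 486, 266 and 289 (× 1000) with saline, 238, 261, 241 and 462 with MABs-allo, and 283, 332, 274 and 292 with MABs-allo-VEGF. At 7d it had 274 to 374 (× 1000). Both genes were highest in saline replicate 8 among the saline samples and in replicate 4 among the MABs-allo samples.

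Mt-cyb, the mitochondrial subunit of complex III, had 208, 336, 216 and 226 (× 1000) with saline at 3d, 167, 160.3, 124 and 395 with MABs-allo, and 215, 227, 185 and 237 with MABs-allo-VEGF. At 7d it had 229 to 396 (× 1000). MABs-allo replicate 4 stood far above the other 3 samples of its group. Mt-co1, the catalytic subunit of complex IV, had 159.6, 441, 198 and 211 (× 1000) with saline at 3d, 333, 299.8, 282 and 349.9 with MABs-allo, and 353, 545, 348 and 254 with MABs-allo-VEGF. At 7d it ranged from 106 to 348 (× 1000), and the low and high values were both from saline samples. The cell-treated samples of 3d lay within the range of the saline samples of 3d except for MABs-allo-VEGF replicate 2.

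The comparisons were tested with limma on log2(normalized count + 1) in 1 fit of all 24 samples, with Benjamini-Hochberg adjustment over 16287 genes. A gene was called where its adjusted p was below 0.05 and its log2 fold change beyond 1. All 13 mRNAs and 18 of the 24 AY17 genes passed the filter on low values. Of the 6 that did not, 4 had no reads and AY172581.19 and AY172581.13 had 9 and 8 reads in all samples together, too few for a comparison. All fold changes below are on the log2(normalized count + 1) scale.

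Between MABs-allo and saline at 3d, 3 of 13 mRNAs and 3 of 18 AY17 genes rose and none fell. Over all genes 12.3% were called in this comparison, 9.4% as higher. Mt-nd6 rose by 4.31 (SE 0.72, adjusted p = 0.0059), Mt-atp8 by 1.96 (SE 0.55, adjusted p = 0.0229) and Mt-nd4l by 1.49 (SE 0.45, adjusted p = 0.0294). AY172581.24 rose by 3.46 (SE 0.72, adjusted p = 0.00717), AY172581.9 by 3.13 (SE 0.53, adjusted p = 0.0059) and AY172581.12 by 1.48 (SE 0.51, adjusted p = 0.0497). The groups did not overlap in Mt-nd6, AY172581.24 and AY172581.9, which was so for 9.44% of all genes in this direction. AY172581.12, with 71.0 to 203 normalized counts with MABs-allo and 21.4 to 106 with saline, overlapped. Mt-nd6, AY172581.24 and AY172581.9 were called whichever sample was left out, and also by edgeR and DESeq2. The call of Mt-atp8 was lost without MABs-allo replicate 1 (1.51) or 4 (1.61) and without saline replicate 8 (1.94) or 9 (1.81). The call of Mt-nd4l was lost without MABs-allo replicate 1 (1.33), 3 (1.61) or 4 (1.43), without saline replicate 8 (1.11), 9 (1.38) or 10 (1.51), and in edgeR (1.15) and DESeq2 (1.21). The call of AY172581.12 was lost in edgeR (1.20), with no filter on low values (1.48), with quantile normalization (1.12), at the same total over all genes (1.21) or over the genes outside the mitochondrial genome (1.47), and when any of 6 of the 8 samples was left out, and it also depended on samples of other groups. In a fit of the 8 samples of these groups alone, which called 11 genes in all, none of the 6 was called. Without saline replicate 8, Mt-nd6 was at 3.59, AY172581.24 at 2.80 and AY172581.9 at 2.90. With 22 samples all 6 were called, as were 18.1% of all genes, Mt-nd6 with 4.89, AY172581.24 with 4.16 and AY172581.9 with 3.53.

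The 10 other mRNAs had log2 fold changes of -0.79 (Mt-nd4) to 0.44 (Mt-co1) between MABs-allo and saline at 3d, with a median of -0.04, and the lowest adjusted p among them was 0.31. Those of the complex I subunits Mt-nd1, Mt-nd2, Mt-nd3 and Mt-nd5 were 0.00, -0.33, -0.08 and 0.42 with SEs of 0.44, 0.51, 0.37 and 0.31. Mt-cyb was at -0.35 (SE 0.40), and of the complex IV subunits Mt-co2 and Mt-co3 were at -0.16 (SE 0.39) and -0.01 (SE 0.32). Mt-atp6, which shares its mRNA with Mt-atp8, was at 0.08 (SE 0.57). The other 16 AY17 genes tested had a median of 0.76 and 11 of them were above 0, against a median of 0.07 over all genes. Among the 11 were AY172581.20 (1.96) and AY172581.11 (0.98), with only 10 and 13 reads in all samples together. Both passed the filter mainly through cell-treated samples of 3d, so the median and the 11 are no support for a rise of the class.

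Between MABs-allo-VEGF and saline at 3d, none of the 31 members tested was called over 24 samples, and 0.0307% of all genes were. At an unadjusted p below 0.05 there were 6 members, a count that was not set against all genes. Mt-nd6 differed by 3.40 (SE 0.72, adjusted p = 0.0733), AY172581.24 by 3.02 (SE 0.72, adjusted p = 0.0753), AY172581.9 by 2.50 (SE 0.53, adjusted p = 0.0733), Mt-atp8 by 2.22 (SE 0.55, adjusted p = 0.0753) and Mt-nd4l by 1.34 (SE 0.45, adjusted p = 0.132). DESeq2 on the recovered reads called Mt-nd6, Mt-atp8, AY172581.24 and AY172581.9, and edgeR called none. With the 22 samples, these 5 genes were called at 4.83, 4.40, 3.57, 3.07 and 2.13 (Mt-nd6, AY172581.24, AY172581.9, Mt-atp8, Mt-nd4l), and so were 13.6% of all genes. Leaving out either saline replicate 6 or MABs-allo-VEGF replicate 4 alone was enough for 3 mRNAs and 2 AY17 genes to be called. The share of all genes called in those fits is not given here, so the gain is not shown to be particular to these genes. The 10 other mRNAs ranged from -0.40 (Mt-nd4) to 0.63 (Mt-co1) over 24 samples.

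MABs-allo-VEGF and MABs-allo were compared directly at 3d. No member was called, as against 0.00614% of all genes, and none had an unadjusted p below 0.05. The same was found by edgeR and DESeq2, which called no member. Mt-nd6 was at -0.91 (SE 0.72), AY172581.9 at -0.63 (SE 0.53), AY172581.24 at -0.44 (SE 0.72), Mt-nd4l at -0.16 (SE 0.45) and Mt-atp8 at 0.26 (SE 0.55). With the 22 samples these were -0.05, 0.04, 0.23, 0.15 and 0.90, so that 3 of the 5 signs turned. Both comparisons with saline share the same saline samples.

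**Figure D3:**
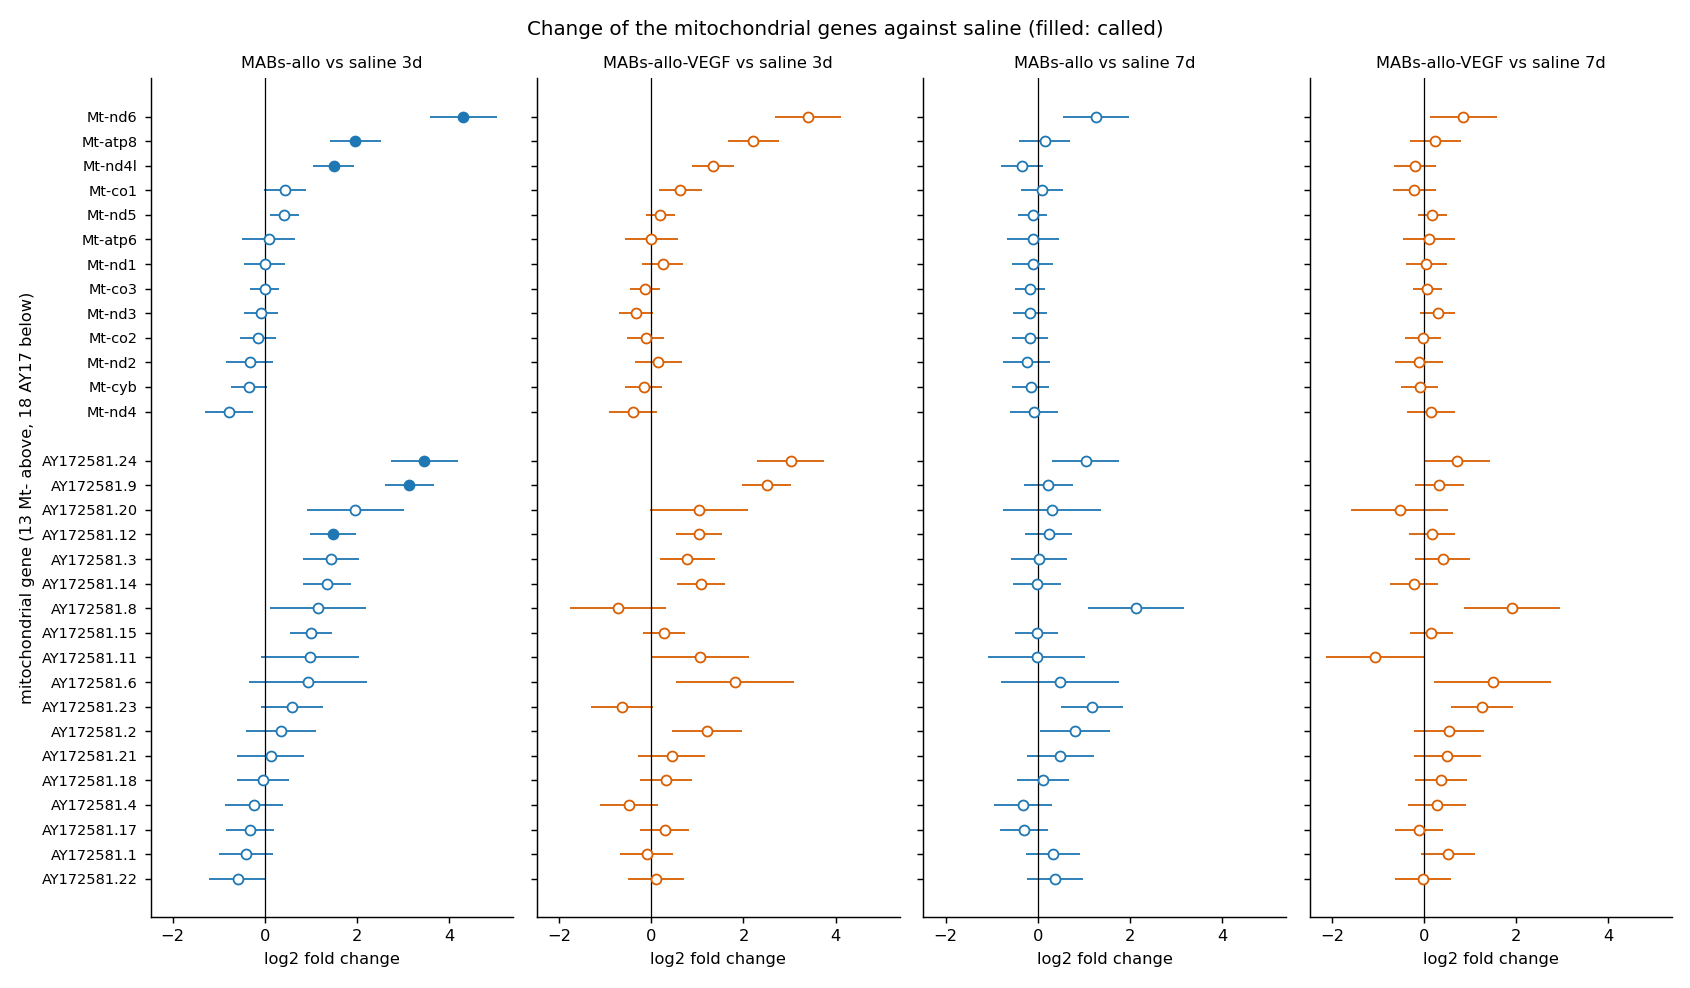
Log2 fold changes against saline (points, with SE as bars) of the 13 Mt- genes (above) and the 18 AY17 genes tested (below) over 24 samples, at 3d and 7d, filled where called. Filled points appear only in the first panel, at Mt-nd6, Mt-atp8, Mt-nd4l, AY172581.24, AY172581.9 and AY172581.12.

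At 7d, none of the 31 members was called in any of the 3 comparisons between treatments, and 0% of all genes were called in each. No member had an unadjusted p below 0.05 either, and edgeR and DESeq2 called none. The 10 mRNAs other than Mt-nd6, Mt-nd4l and Mt-atp8 lay between -0.24 (Mt-nd2) and 0.09 (Mt-co1) for MABs-allo against saline and between -0.21 (Mt-co1) and 0.29 (Mt-nd3) for MABs-allo-VEGF against saline. Mt-nd6 was at 1.27 (SE 0.72) and 0.85 (SE 0.72) and AY172581.24 at 1.04 (SE 0.72) and 0.71 (SE 0.72) in these 2 comparisons, with adjusted p between 0.848 and 0.929.

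The days were compared within each treatment. With MABs-allo, 3 mRNAs and 3 AY17 genes were higher at 3d than at 7d, against 17% of all genes called higher and 23% called in either direction. Mt-nd6 was higher by 5.10 (SE 0.72, adjusted p = 6.76e-05), AY172581.24 by 4.81 (SE 0.72, adjusted p = 0.000104) and AY172581.9 by 4.29 (SE 0.53, adjusted p = 3.37e-05). Mt-atp8 was higher by 2.73 (SE 0.55), Mt-nd4l by 2.45 (SE 0.45) and AY172581.12 by 1.40 (SE 0.51). The days did not overlap in the first 5 of these genes, which was so in this direction for 17.7% of all genes. Mt-co1 at 3d also lay above its samples of 7d, at 0.57, and was not called.

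With MABs-allo-VEGF, the same 3 mRNAs and AY172581.24 and AY172581.9 were higher at 3d, against 13.1% of all genes called higher and 15.3% called in either direction. AY172581.24 was higher by 4.71 (SE 0.72, adjusted p = 0.000228), Mt-nd6 by 4.62 (SE 0.72, adjusted p = 0.000255), AY172581.9 by 3.55 (SE 0.53, adjusted p = 0.000188), Mt-atp8 by 2.89 (SE 0.55) and Mt-nd4l by 2.15 (SE 0.45). In all 5 every sample of 3d, replicate 4 included, was above every sample of 7d, as in 13.8% of all genes. Mt-co1 also lay above its samples of 7d, at 1.07 (SE 0.46, adjusted p = 0.105), while Mt-nd4 (-0.77), Mt-nd3 (-0.75) and Mt-cyb (-0.44) lay below theirs (8.01% of all genes did), and none of these 4 was called.

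With saline, no member was called between 3d and 7d, against 3.19% of all genes. An unadjusted p below 0.05 was found for 3 members, a count that was not set against all genes. AY172581.24 was at 2.39 (SE 0.72, adjusted p = 0.0614), Mt-nd6 at 2.06 (SE 0.72, adjusted p = 0.109), AY172581.9 at 1.38 (SE 0.53, adjusted p = 0.149) and Mt-atp8 at 0.92 (SE 0.55, adjusted p = 0.392). Without saline replicate 6, as also with the 22 samples, the first 3 were at 1.69, 1.49 and 0.98 and were not called. Without saline replicate 8, AY172581.24 (3.05) and Mt-nd6 (2.79) were called. The days did not overlap in AY172581.24, AY172581.9 and Mt-atp8, as in 5.65% of all genes. AY172581.24, AY172581.9 and Mt-nd6 were called by edgeR (3.02, 1.52 and 2.48) and by DESeq2 (3.09, 1.58 and 2.55) on the recovered reads.

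Whether a difference from saline changed between 3d and 7d was tested as an interaction. Over 24 samples no member was called, and 0% of all genes were for either cell product. At an unadjusted p below 0.05 there were 5 members for each product, a count that was not set against all genes. Of the members, edgeR called none, and DESeq2 called 1 AY17 gene for MABs-allo. The differences of the log2 fold changes of MABs-allo against saline, 3d minus 7d, were 3.04 for Mt-nd6 (SE 1.02, adjusted p = 0.233), 2.91 for AY172581.9 (SE 0.75, adjusted p = 0.189) and 2.42 for AY172581.24 (SE 1.02, adjusted p = 0.308). With the 22 samples, Mt-nd6 (3.62), AY172581.9 (3.31), AY172581.24 (3.12) and Mt-nd4l (2.32) were called for MABs-allo, where 3.56% of all genes were. For MABs-allo-VEGF over 24 samples, the differences were 2.56 for Mt-nd6 (SE 1.02, adjusted p = 0.551), 2.31 for AY172581.24 (SE 1.02, adjusted p = 0.569), 2.18 for AY172581.9 (SE 0.75, adjusted p = 0.532), 1.98 for Mt-atp8 and 1.54 for Mt-nd4l. With the 22 samples these 5 were called, at 3.98 (Mt-nd6), 3.25 (AY172581.9), 3.68 (AY172581.24), 2.33 (Mt-nd4l) and 2.83 (Mt-atp8), with 3.59% of all genes.

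Pairs of genes on a shared mRNA were set against each other within each sample, which needs no scaling between samples. The Mt-atp8 count was 0.782 to 1.47% of the Mt-atp6 count in the 12 samples of 7d and 1.34 to 2.67% in the saline samples of 3d. With MABs-allo at 3d it was 17.9, 4.45, 3.43 and 7.70%, and with MABs-allo-VEGF at 3d 11.5, 13.5, 12.9 and 2.68%. All 8 cell-treated samples of 3d were above the 16 other samples, MABs-allo-VEGF replicate 4 (2.68%) by little over saline replicate 6 (2.67%). The Mt-nd4l count was 0.102 to 0.231% of the Mt-nd4 count at 7d. It was 1.06, 0.0873, 0.276 and 0.353% with saline at 3d, 2.53, 1.82, 2.81 and 0.391% with MABs-allo, and 1.01, 1.90, 1.46 and 0.397% with MABs-allo-VEGF. Here saline replicate 6 overlapped with the cell-treated samples. Reads in the overlap of 2 genes may be left out or assigned to either, and the strand setting of the counting is not given in the sources used here, so counts of these 4 genes are uncertain. For Mt-nd6, reads from the RNA of the opposite strand cannot be told apart without it.

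**Figure D4:**
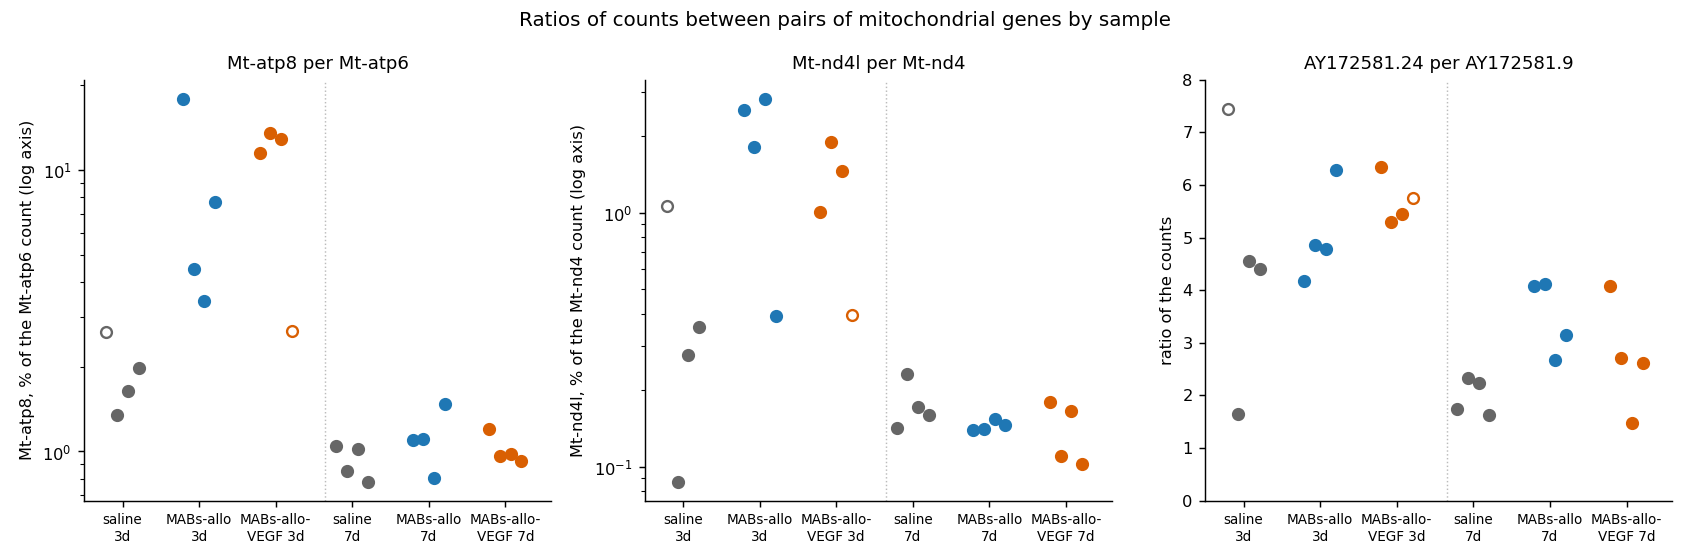
Count of Mt-atp8 as % of Mt-atp6 and of Mt-nd4l as % of Mt-nd4 (log axes), and the count of AY172581.24 divided by that of AY172581.9, 1 point per sample, open for saline replicate 6 and MABs-allo-VEGF replicate 4 of 3d. In the first panel the 8 cell-treated points of 3d, 2.68 to 17.9%, stood above the other 16.

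The make-up of the mRNA counts was nearly constant for some genes and not for others. Mt-atp6 held 30.3 to 39.4% of the Mt- counts in all 24 samples. Mt-nd4 held 2.93, 2.81 and 2.03% in MABs-allo replicates 1 to 3 of 3d but 8.18% in replicate 4, and 4.98 to 8.36% in the samples of 7d. Mt-cyb held 7.46 to 9.23% with MABs-allo at 3d, below all saline samples of 3d (9.82 to 11.3%) and all samples of 7d (10.5 to 13.7%). Mt-co1 held 14.9, 16.3 and 17.2% in MABs-allo replicates 1 to 3 and 8.17% in replicate 4 at 3d, 12.2 to 16.6% with MABs-allo-VEGF at 3d, and 3.95 to 15.3% at 7d. Mt-nd6, Mt-nd4l and Mt-atp8 together held 0.272 to 0.509% at 7d, 0.433 to 1.14% with saline at 3d and 0.888 to 6.73% in the cell-treated samples of 3d. The rise of these 3 genes therefore had little weight in the share of the class.

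**Figure D5:**
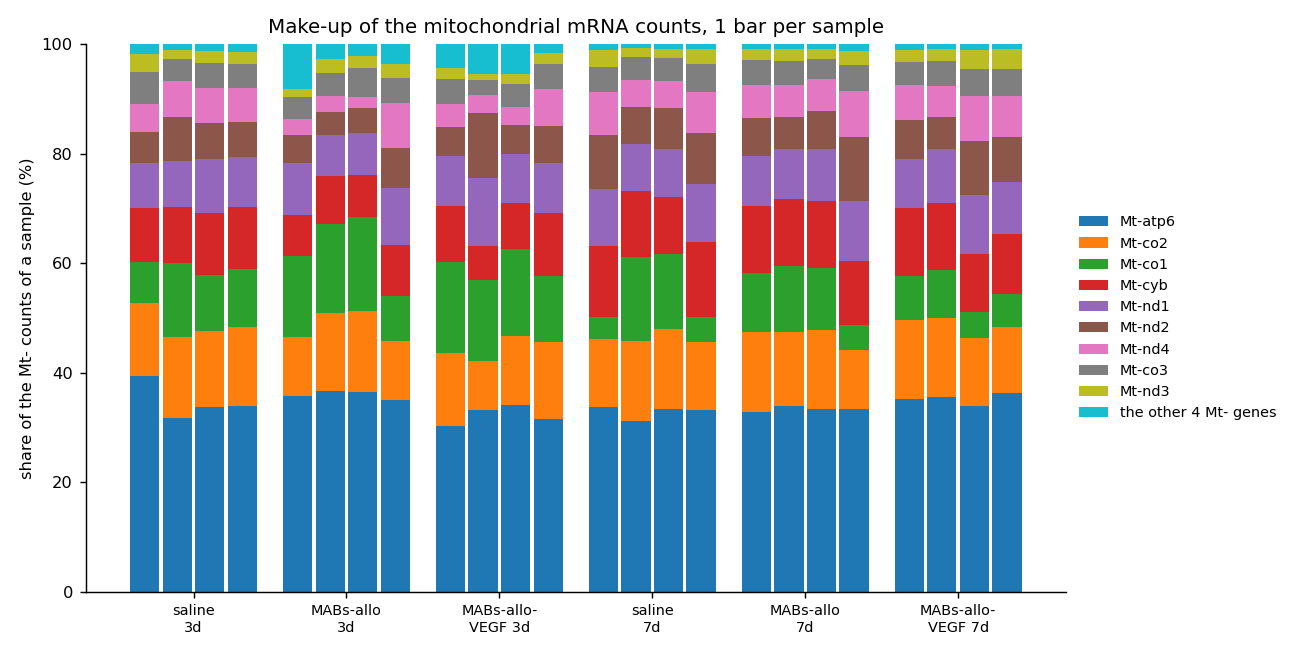
Share of the Mt- counts of each sample (%) held by 9 mRNAs and by the other 4 together (Mt-nd6, Mt-nd4l, Mt-atp8 and Mt-nd5), with 1 bar per sample in the order of replicates. Mt-atp6 took 30.3 to 39.4% throughout, and the top segment was widest in MABs-allo replicate 1 of 3d, where Mt-nd6, Mt-nd4l and Mt-atp8 held 6.73%.

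Nuclear genes that serve mitochondrial gene expression were read from lists chosen by name. Of 40 genes for transcription, replication and RNA processing, 1 was called between MABs-allo and saline at 3d, against 12.3% of all genes, and the median log2 fold change was 0.13. It was Ppargc1b, a transcriptional coactivator, which rose by 2.48 (SE 0.55, adjusted p = 0.00862). None of 16 synthetases that charge mitochondrial tRNAs, none of 73 proteins of the mitochondrial ribosome and none of 18 nuclear subunits of the respiratory complexes was called, with medians of -0.11, -0.18 and -0.02. Between MABs-allo-VEGF and saline at 3d none of the 4 lists had a call over 24 samples, where 0.0307% of all genes were called, with medians of 0.08, 0.02, -0.15 and -0.08 in the same order. With the 22 samples, 2 of 40, 1 of 16, 3 of 73 and 0 of 18 were called, against 13.6% of all genes, and for MABs-allo 1, 1, 5 and 0, against 18.1%.

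Between 3d and 7d, the nuclear subunits had medians of -0.49 with saline, -0.58 with MABs-allo and -0.50 with MABs-allo-VEGF, and the mitochondrial ribosome -0.23, -0.44 and -0.31, against medians of 0.05 to 0.06 over all genes. With MABs-allo 23% of all genes were called. Called in the lists were 3 of 18 nuclear subunits, all lower at 3d (Cox6c -1.38, Uqcrfs1 -1.38, Ndufs3 -1.01), 8 of 73 ribosomal proteins, 3 higher and 5 lower, and 1 of 16 synthetases, Nars2 (1.82), which was higher. Of the 40 genes for transcription, replication and RNA processing, 7 were called with MABs-allo. Ppargc1b (3.24), Polg (2.41), the mitochondrial DNA polymerase, Angel2 (1.31) and Gabpa (1.05) were higher at 3d. Lrpprc (-1.11), which stabilises mitochondrial mRNAs, Fastkd2 (-1.15) and Tbrg4 (-1.38), RNA-binding proteins of mitochondria, were lower. With MABs-allo-VEGF, where 15.3% of all genes were called, 3 of these 40 were: Ppargc1b (3.28) and Angel2 (1.38) were higher and Lrpprc (-1.21) lower. Of the synthetases Lars2 (3.60) and Nars2 (1.58) were higher, of the 73 ribosomal proteins Mrpl1 (2.54) and Mrpl51 (1.16) were higher and Mrpl38 (-1.22) and Mrps7 (-1.18) lower, and no nuclear subunit was called. With saline, Ppargc1b (2.20) alone was called in the 4 lists.

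Other values moved with the AY17 share between the groups. The cell-treated groups of 3d had fewer reads than the others, as given above. Saline replicate 6 had the highest AY17 share of the saline samples of 3d and also the most reads (5249467). MABs-allo-VEGF replicate 2 had the highest share of its group (24.5%) and the fewest reads (3042531). Replicate 4, with the lowest share of that group, had 4039089 reads, and the highest number was 4261098. MABs-allo replicate 1, with the highest share of its group, had 3243344 reads in a range of 2170695 to 4491900. Structural small RNAs such as U6 and snoRNAs took 0.00963 to 0.0191% of the counts at 7d, 0.0125 to 0.0237% with saline at 3d, 0.0249 to 0.150% with MABs-allo and 0.0161 to 0.0565% with MABs-allo-VEGF.

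Markers of cell types were read between MABs-allo and saline at 3d, where 12.3% of all genes were called and 9.4% as higher. Of 5 macrophage markers, 3 fell and none rose (median -1.77), and their summed counts of 1725 to 11527 with MABs-allo lay below the 17451 to 41760 with saline. Of 6 striated muscle markers, 2 rose (Mylpf and Tnnt3, median 1.36), with overlapping sums of 87154 to 390577 and 52049 to 202697, and with 22 samples none was called. Of 8 epithelial markers, 1 rose (Krt14), and none of 7 smooth muscle, 4 adipocyte and 4 erythroid markers was called, with medians of 0.30, -1.37 and -0.90. With 22 samples 2 epithelial markers were higher and 1 erythroid marker was lower. Between MABs-allo-VEGF and saline at 3d no marker was called over 24 samples, as against 0.0307% of all genes. The medians were -1.41 for erythroid, -1.08 for adipocyte, -0.66 for macrophage, 0.07 for smooth muscle, 0.69 for striated muscle and 0.97 for epithelial markers. With 22 samples 3 of 4 erythroid markers were lower (median -3.25) and 1 epithelial marker higher. Summed erythroid markers at 3d were 38699.5, 376441, 571383 and 365724 in saline replicates 6, 8, 9 and 10. They were 66777 to 262987 with MABs-allo, 22348 to 191700 in MABs-allo-VEGF replicates 1 to 3, and 442006 in its replicate 4. At 7d, where AY17 shares were 0.445 to 1.45%, they ranged from 78190 to 1.91e+06.

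Between 3d and 7d with MABs-allo, 23% of all genes were called. All 4 adipocyte markers (median -5.13), 3 of 7 smooth muscle markers (median -1.30) and 2 of 5 macrophage markers (median -1.22) were lower at 3d. Of 8 epithelial markers 2 were higher and 1 lower. Summed smooth muscle markers were 82929 to 144591 at 3d and 193733 to 208679 at 7d. With MABs-allo-VEGF, where 15.3% of all genes were called, 1 marker was called, Acta2 of smooth muscle (-1.40). The smooth muscle sums were 59083 to 121926 at 3d and 116067 to 274371 at 7d. With saline, where 3.19% of all genes were called, 2 of 7 smooth muscle, 1 of 4 adipocyte and 1 of 8 epithelial markers were lower at 3d. No striated muscle or erythroid marker was called between the days in any treatment. The summed markers of smooth muscle, striated muscle and epithelium, tissues of the urethra, were above 0 in every sample. The part of depth, small RNAs and cell types in the mitochondrial results was not tested.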

How the data were processed

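RNA of 24 rat urethras was sequenced as 3ʹ mRNA libraries (QuantSeq) with single-end reads. The authors aligned the reads to the rat genome build Rnor6.0 with HISAT2, discarded reads that mapped to several loci, counted reads per gene with HTSeq and divided by DESeq2 size factors. The deposited normalized counts are therefore a signal relative to these factors, so reads shared with nuclear copies of mitochondrial genes are not in them, and the annotation release is not given in the sources used here. All values were whole multiples of the value of 1 read in their sample (100% within a relative tolerance of 1e-06), which returned the reads.

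Shares were taken of each sample's total. Genes with a mean of at least 2 normalized counts (16287) were tested with limma 3.58.1 (R 4.3.3) on log2(value + 1) with empirical Bayes moderation, in 1 fit over 6 groups, and calls needed a log2 fold change beyond 1 besides an adjusted p under 0.05. Other scalings of the values were tried as well. The alternatives included edgeR 4.0.16 and DESeq2 1.42.0 on the recovered reads, another pseudocount, filters, sample weights, only the groups compared, 22 samples, and each sample left out. The steps were tested on simulated data.

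The members and lists were chosen with earlier results of these data known. Values per sample were given for the 4 genes of highest mean in each class, the Mt- gene of lowest mean, AY172581.24, and the called genes whose groups did not overlap (up to 4 per class). AY172581.12 and the other genes with fold changes follow from the calls or the lists. The paired numbers were used only as stated in the closing section. Names not found in the table were left out of the lists (Kiaa0391, Fastkd5, Atp5a1, Atp5b, Atp5c1, Myh1 and Myh2).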

Additional observations from a re-analysis of the deposited data

Results flagged for a closer look

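In each group of 4 samples, the highest and lowest sample's gap to its neighbour was divided by the range of the group and set against Dixon's critical value of 0.829. Of 96 groups examined over the class shares and the named genes, 9 had such a sample. A rate of about 1 in 20 by chance holds for normally distributed values and independent groups. Here the same samples recur, and the shares contain the genes, so the 9 cannot be set against that rate. Saline replicate 8 and MABs-allo replicate 4 at 3d gave 6 of the 9. The mRNA share was 17.2% in saline replicate 8 and 17.6% in MABs-allo replicate 4. Mt-co2 had 485901 normalized counts in the first and 462086 in the second, and Mt-cyb had 336473 and 395166. All 6 were the highest values of their groups. The share of the 22 AY17 genes other than AY172581.24 and AY172581.9 was 0.0205% in saline replicate 10 at 3d. Mt-nd6, Mt-nd4l and Mt-atp8 together held 0.440% of the Mt- counts in MABs-allo-VEGF replicate 6 at 7d, a sample labelled recovery. AY172581.18 had 3354 normalized counts in MABs-allo replicate 9 at 7d. No difference between the days in the effect of a treatment passed among the 33 interaction tests of the named genes over 24 samples, with a lowest adjusted p of 0.189 from limma.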

How the results depend on the processing

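Fold changes under alternatives were followed for AY172581.24, AY172581.9, AY172581.12, Mt-nd6, Mt-nd4l and Mt-atp8, only in comparisons where the gene was called in at least 1 setting. Of these 1216 fold changes, 1107 kept their side of the threshold, 50 lost it, 59 gained it and none reversed. Comparisons without a call were left out by this choice. Among them is MABs-allo-VEGF against MABs-allo at 3d, where signs turned with the 22 samples, as given above. Counts below are of mRNAs, then of AY17 genes, and the causes of the changes were not tested. The calls over all genes also moved between settings, as given in the next paragraph for some of them. The share of all genes is not given for every setting, so these counts show how calls depend on the setting and nothing particular to the members. For MABs-allo against saline at 3d (3 and 3), only the 2 groups compared gave 0 and 0, and DESeq2 and sample weights each gave 5 AY17 genes. Leaving out 1 sample gave 1 to 3 (1 without saline replicate 8 or 9 or MABs-allo replicate 1) and 2 to 4. For MABs-allo-VEGF against saline at 3d (0 and 0), a pseudocount of 5 gave 2 and 2, DESeq2 2 and 2, weights 3 and 3, and 22 samples 3 and 2. Leaving out 1 sample gave 0 to 3 and 0 to 2. For saline at 3d against 7d (0 and 0), edgeR, DESeq2 and weights gave 1 and 2, while a filter at 10 and quantile normalization gave 1 AY17 gene. Leaving out 1 sample gave 0 to 1 in both (1 without saline replicate 8 or MABs-allo-VEGF replicate 4 of 3d). For MABs-allo at 3d against 7d (3 and 3), edgeR and DESeq2 gave 5 AY17 genes and weights 6, and leaving out 1 sample gave 3 to 4 and 2 to 5 (5 without MABs-allo replicate 1 of 3d or 9 of 7d). For the interaction of MABs-allo (0 and 0), weights gave 1 and 1, 22 samples 2 and 2, DESeq2 1 AY17 gene, and leaving out 1 sample 0 and 0 to 1 (1 without saline replicate 6 of 3d). For that of MABs-allo-VEGF (0 and 0), weights gave 1 and 1 and 22 samples 3 and 2.

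Against the total of genes outside the mitochondrial genome, the mean mRNA share was 15.4% (saline 3d), 16.3% (MABs-allo 3d), 16.7% (MABs-allo-VEGF 3d), 17.0% (saline 7d), 14.4% (MABs-allo 7d) and 15.9% (MABs-allo-VEGF 7d), and the AY17 share 27.8% (MABs-allo 3d) and 0.609% (saline 7d). Over all genes, MABs-allo against saline at 3d had 1531 higher and 466 lower calls, but 1253 and 975 after quantile normalization and 1102 and 1021 at the same total over all genes. These scalings moved the median of all genes from 0.07 to -0.14 and -0.19. Its 1997 calls became 11 with only the 2 groups compared. The 5 calls of MABs-allo-VEGF against saline at 3d became 181 with a pseudocount of 5, 388 in DESeq2, 1497 with weights and 2213 with 22 samples. The 520 calls of saline at 3d against 7d became 1009 in edgeR, 1383 in DESeq2, 1852 with weights and 31 with 22 samples.

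The replicate numbers 1 to 4 are shared by both cell-treated groups of 3d. The deviations of same-numbered samples from their group means had correlations of 0.222, 0.151, 0.0734 and 0.254. Those of differently numbered samples were not computed, so these values do not settle whether the samples are pairs. They were not treated as pairs. With the replicate block 0 mRNAs and 0 AY17 genes were called, as without it.

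For the 6 AY17 genes below the filter no difference was detectable at this depth, and how far these libraries capture their RNA was not tested.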
